A study of Mus musculus with 22 samples.

Results

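S40A CREB is compared here with wild-type (WT) CREB after 8 h of virus expression in depolarized mouse cortical neurons. The libraries are the 8 labelled with either protein at this time, 4 for S40A and 4 for WT, out of 22 in the series. S40A neurons received a herpes simplex virus (HSV) carrying CREB that cannot be glycosylated at its O-GlcNAc site, WT neurons received HSV carrying unaltered CREB, and GFP neurons, used for reference values, received HSV carrying GFP. All groups, the GFP controls included, share the label Creb1-/- and the strain C57BL/6. Cortical neurons were taken at E16.5 (days of gestation), silenced overnight with 1 µM tetrodotoxin and 100 µM D-AP5, exposed to virus, depolarized for 2 h with 55 mM KCl and collected at 7 days in vitro. The promoter in the virus, the share of neurons infected and the deleted stretch of Creb1 are not given in the sources used here. Nor is it stated that replicates were separate cultures, so a p-value here reflects how far these libraries scatter, and part of that scatter may be technical.

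CREB is a transcription factor that binds cyclic AMP response elements in promoters. Calcium entry during depolarization activates kinases that phosphorylate it, coactivators such as CBP and p300 are then recruited, and genes such as Fos and Nr4a1 are induced. O-GlcNAc transferase (Ogt) attaches a sugar to serine and threonine residues of many nuclear proteins, and on CREB this modification has been described as lowering its activity as a transcription factor.

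The labels were checked first on the gene that the virus carries. Creb1 (chromosome 1, 64532804 to 64604548, mm10) stood at 873, 1170, 580 and 2320 scaled FPKM in S40A replicates 1 to 4, against 702, 1230, 766 and 2090 scaled FPKM in WT replicates 1 to 4. FPKM counts fragments relative to transcript length and library size, and scaling divided each library by its median ratio to the others. In both groups replicate 4 was highest and replicate 3 at the low end, and the groups overlapped, whereas GFP libraries lay between 9.61 and 15 scaled FPKM. S40A differed from WT by -0.002 on the log2(scaled FPKM + 1) scale (SE 0.498, limma unadjusted p = 0.997, adjusted p = 1). All differences below are on that scale, which understates those of low genes. The GFP libraries, although labelled Creb1-/- and given no CREB virus, were thus not near 0 but around the median of named genes tested (11.2 scaled FPKM), so these values go against a full loss of the Creb1 transcript. Whether the fragments lie outside the deleted stretch cannot be seen at gene level. Nor do gene-level values show the substituted residue, so Creb1 separates both CREB groups from GFP but not S40A from WT.

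The library numbers in the deposited file names place replicates 1 and 2 of both groups in an earlier set and replicates 3 and 4 in a later set, and this set was the covariate of the fit. S40A replicates 1 and 2 were most like each other across genes (r = 0.991), while S40A replicate 3 was most like WT replicate 3 (r = 0.989) and S40A replicate 4 most like WT replicate 4 (r = 0.987). WT replicates 1 and 2 were most like S40A replicates 3 (r = 0.981) and 4 (r = 0.975), which belong to the other set. WT replicate 2 stood apart, with correlations of 0.946 to 0.975 to the other 7 libraries. Relative depth ranged over 1 to 1.64 and the median Cufflinks interval over ±6.85% to ±8.79% of a gene's value. The absolute depth is unknown. Markers of cortical neurons were present in every library. The 13 excitatory markers summed to 636 to 859 scaled FPKM in S40A and 424 to 844 in WT, and the 16 inhibitory markers to 553 to 730 in S40A and 430 to 886 in WT. Glial markers were present too, at 187 to 377 scaled FPKM in S40A and 233 to 394 in WT over 16 astrocyte and radial glia genes. In these bulk samples, fewer cells of a type and less RNA per cell cannot be told apart.

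Across genes, no difference between S40A and WT passed the test. Of 11825 genes with a mean of at least 1 scaled FPKM, 0 were called at an adjusted p under 0.05 (0.0%). At an unadjusted limma p under 0.05 there were 593 (5.01%), of which 414 were higher (3.5%) and 179 lower (1.51%) in S40A. With the deposited FPKM left unscaled there were 201 higher and 223 lower, so the lean toward higher genes depends on the scaling. The count of 593 was 179 without S40A replicate 1, 999 without S40A replicate 4 and 1137 without WT replicate 3. With S40A and WT paired by replicate number, 1309 genes were higher in S40A in all 4 pairs (11.1%) and 918 were lower in all 4 (7.76%). A further 1596 were lower in S40A in pairs 1 and 2 but higher in pairs 3 and 4 (13.5%), and 1486 had the reverse pattern (12.6%). The remaining 6516 were mixed. Unscaled FPKM gave 924, 1099, 927 and 2334 genes in these 4 patterns, in the same order, and set the median set difference of all genes at -0.113, against -0.010 with scaling.

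Genes with opposite signs in the 2 library sets outnumbered those with 1 direction, also when only larger or better separated differences were counted. With every pair differing by at least 0.1 on the log2 scale, 339 genes were higher in all pairs (2.87%) and 186 lower (1.57%), against 606 (5.12%) and 473 (4.0%) with opposite signs. The choice of pairs has no bearing on genes whose libraries do not overlap within a set. There, both S40A libraries lay above both WT libraries in both sets for 364 genes (3.08%) and below for 254 (2.15%), while the sets went opposite ways for 576 (4.87%) and 586 (4.96%). All 4 S40A libraries lay above all 4 WT libraries for 194 genes (1.64%) and below them for 135 (1.14%).

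**Figure D1:**
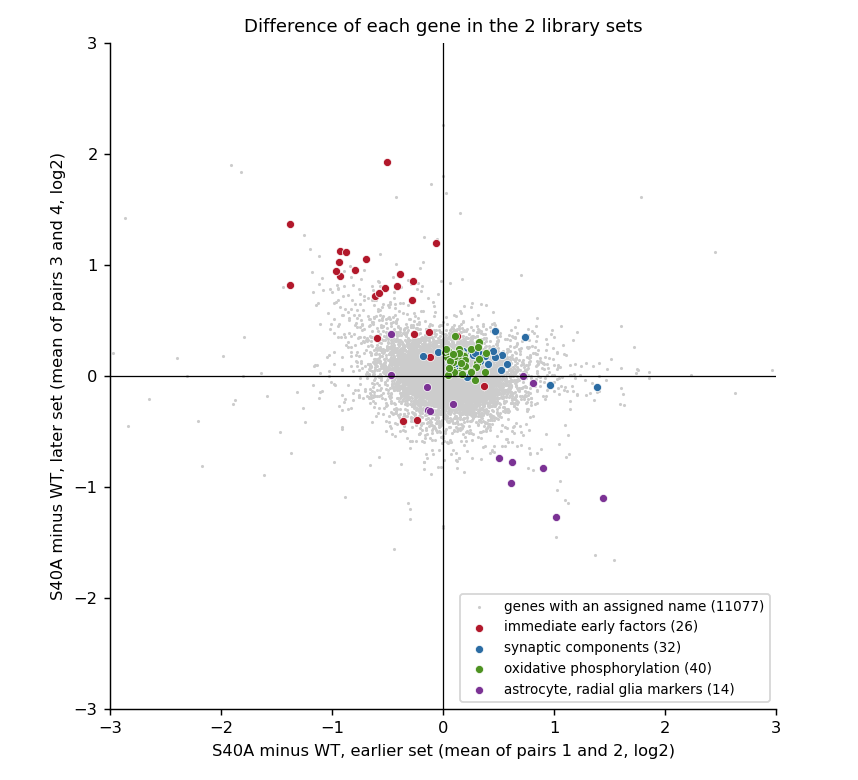
Each point is 1 gene, with its S40A minus WT difference in the earlier set on the horizontal axis and in the later set on the vertical axis (log2(scaled FPKM + 1), means of 2 pairs each); colours mark 4 gene lists. Immediate early factors (26 genes) lie mostly in the upper left, astrocyte and radial glia markers (14) lie mostly to the lower right, and synaptic (32) and oxidative phosphorylation genes (40) lie mostly in the upper right.

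A test of the difference between sets, taken as S40A minus WT in the later set minus the same in the earlier set, called 8 of 11825 genes at an adjusted p under 0.05 (0.0677%), 3 with a higher (0.0254%) and 5 with a lower (0.0423%) later difference. It called 20 to 31 when any 1 library was left out, and 1 with all 16 libraries at 8 h in the fit. Of the 8, 7 are microRNA, snoRNA or scaRNA entries listed at 0 in 6 of the 8 libraries, and the eighth, BC029722, was listed at 0 in 2. At an unadjusted p under 0.05 the test counted 1370 genes (11.6%), 670 with a higher (5.67%) and 700 with a lower (5.92%) later difference (413 and 969 with unscaled FPKM). The total was 643 without S40A replicate 2. The gene differences of pairs 1 and 2 correlated at 0.409 and those of pairs 3 and 4 at 0.504, whereas pairs from different sets correlated at -0.291 to -0.007. These correlations are across 11077 named genes, which are not independent, and pairs of 1 set share their place in the library numbering.

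Among genes higher in S40A in every pair, the one with the largest weakest pair was Cartpt (chromosome 13, 99898483 to 99900683, mm10), which encodes the precursor of the CART neuropeptides. It stood at 93.1, 69, 18.8 and 11.1 scaled FPKM in S40A replicates 1 to 4, against 23, 8.27, 7.23 and 5.2 in WT replicates 1 to 4. S40A was above WT in each pair and within each set, although S40A replicates 3 and 4 lay below WT replicate 1. The difference was 1.78 (SE 0.40, 3.43-fold, 95% interval 1.80 to 6.54), with a limma unadjusted p of 0.00259 and an adjusted p of 0.888. GFP libraries held 14.8, 76.8, 3.29 and 8.69 scaled FPKM, overlapping both CREB groups. GFP replicate 2 stands apart and is a weak reference here and below. Its ribosomal protein genes summed to 17500 scaled FPKM, against 6800, 5620 and 6070 in GFP replicates 1, 3 and 4.

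A voltage-gated potassium channel of the EAG type, Kcnh1 (chromosome 1, 192190872 to 192510158, mm10), differed less but more evenly. Its levels were 16.6, 13.9, 13.3 and 12.1 scaled FPKM in S40A, against 10.1, 9.11, 9.66 and 8.93 in WT. Every S40A library was above every WT library, by a mean of 0.51 (SE 0.09, limma unadjusted p = 0.000652, adjusted p = 0.888). Camk2n2, an inhibitor of the calcium/calmodulin-dependent kinase CaMKII, showed 60.9, 56, 59.8 and 55 scaled FPKM in S40A and 44.3, 48.6, 45.5 and 40.6 in WT. Ppp2r2c, a regulatory subunit of protein phosphatase 2A, showed 77.8, 69, 76.3 and 71.3 in S40A and 60.3, 56.3, 59 and 59.7 in WT. In both genes all S40A libraries exceeded all WT libraries, and the differences were 0.37 (SE 0.07) and 0.32 (SE 0.07). Their limma unadjusted p-values were 0.00129 and 0.0017, with adjusted p-values of 0.888. GFP replicates 1 to 4 lay at 43.6, 60.7, 35.4 and 52 for Camk2n2, with only replicate 2 among the S40A values. For Ppp2r2c they lay at 56.1, 75.8, 57.9 and 69.9, with replicates 2 and 4 among the S40A values.

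Ncald, a neuronal calcium sensor, held 34.1, 34.1, 39 and 29.2 scaled FPKM in S40A, against 18.4, 19.4, 28.7 and 22.7 in WT. Its groups did not overlap, with WT replicate 3 closest to S40A at 28.7. The other genes of the 10 ranked highest by their weakest pair were Tmcc2, the Ras-like GTPase gene Rasl10b, the synaptic scaffold gene Cnksr2, Golga7b, Nrsn1, the mitochondrial import chaperone gene Timm10b, and Tceal5. Their differences ran from 0.38 for Timm10b to 0.67 for Nrsn1. Over these 10 genes the weakest pair ranged over 0.302 to 0.961, 5 had no overlap over all 8 libraries, and 9 had an unadjusted p under 0.05, a property close to the ranking itself.

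Nts (chromosome 10, 102481756 to 102490418, mm10), the precursor gene of neurotensin, headed those lower in S40A in every pair. It stood at 4.42, 6.08, 12.1 and 13 scaled FPKM in S40A, against 22.7, 9.8, 19.2 and 22.8 in WT. S40A was lower within each set, but S40A replicates 3 and 4 lay above WT replicate 2. The difference was -1.03 (SE 0.27, limma unadjusted p = 0.00548, adjusted p = 0.888). GFP libraries lay at 20.5, 3.89, 21.4 and 12.2, overlapping both groups.

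The smallest unadjusted p-value of the named genes belonged to the entry Rpl34-ps1 (chromosome 3, 130726837 to 130730329, mm10). Its deposited position lies within that of the ribosomal protein gene Rpl34, whereas RefSeq places a gene named Rpl34-ps1 on another chromosome, so the entry is described by its position. Levels were 36.6, 31.5, 29.4 and 34.9 scaled FPKM in S40A, against 46.7, 48.2, 46.9 and 42.7 in WT. The groups did not overlap and differed by -0.47 (SE 0.08, limma unadjusted p = 0.000622, adjusted p = 0.888). The overlapping entry Rpl34 differed by -0.05 (limma unadjusted p = 0.873, adjusted p = 0.993), with opposite signs in the 2 sets. How reads were shared between overlapping entries and near-identical copies is not given, so the values of Rpl34-ps1, Rpl34 and other ribosomal protein genes are uncertain. Trp53, which encodes the stress-response factor p53, showed 16.1, 17.8, 14 and 17.7 scaled FPKM in S40A and 20.8, 25.9, 17.6 and 23 in WT. It was lower in each pair, with a slight overlap because WT replicate 3 (17.6) was below S40A replicates 2 and 4. The other 7 genes were Rpl38, the zinc-finger factor gene Tshz2, the helix-loop-helix inhibitor gene Id1, the kinesin-family gene Kif26a, the homeobox gene Irx2, the glycosyltransferase gene B3gnt5, and D8Ertd82e. Their differences ran from -0.88 for Rpl38 to -0.33 for B3gnt5, and 3 of the 10 genes had no overlap over all 8 libraries.

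**Figure D2:**
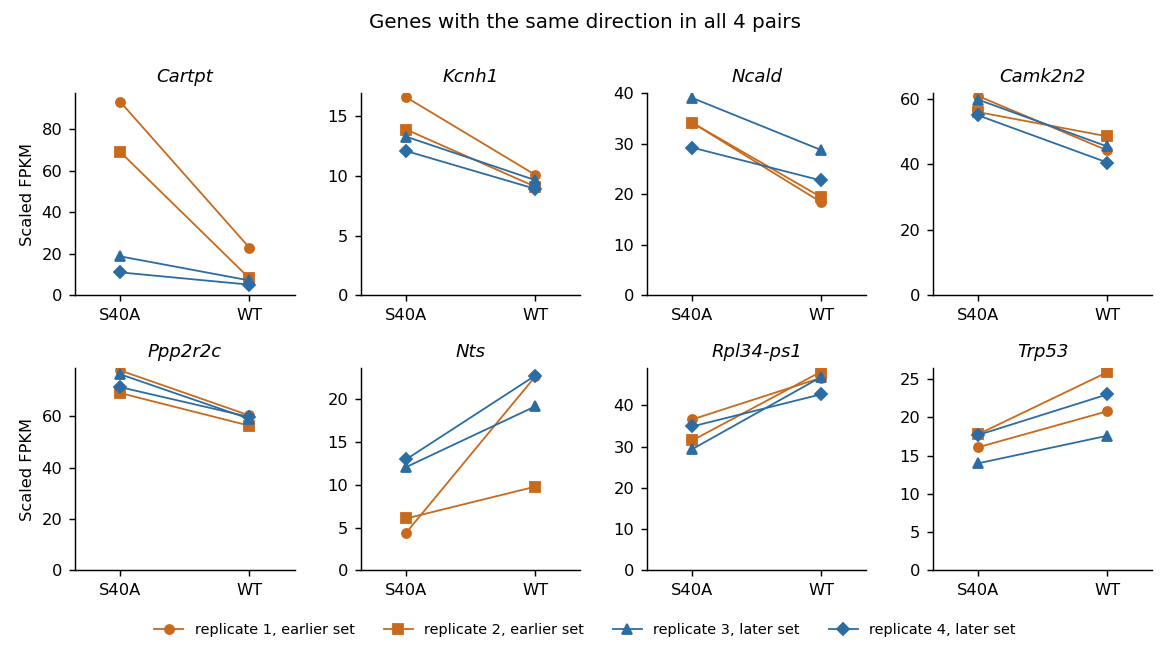
Scaled FPKM of 8 genes with the same direction in every pair; each line joins the S40A library (left) to the WT library (right) of 1 replicate number, orange for the earlier and blue for the later set. All lines slope down to the right for Cartpt, Kcnh1, Ncald, Camk2n2 and Ppp2r2c and up for Nts, Rpl34-ps1 and Trp53, and Cartpt has its highest values in S40A replicates 1 (93.1) and 2 (69).

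Genes whose signs differed between sets had larger weakest pairs than most of those above. Adcyap1, the gene of the neuropeptide PACAP, led those that were lower in S40A in the earlier set and higher in the later set. It stood at 12.6, 6.04, 12.7 and 28.9 scaled FPKM in S40A, against 21.5, 23.2, 3.91 and 13.5 in WT. Both WT values of the earlier set exceeded both of the later set, and the groups overlapped over all 8 libraries. The overall difference was 0.00 (SE 0.62), and the difference between sets was 2.52 (SE 0.87, limma unadjusted p = 0.0268, adjusted p = 0.365).

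Gpr85 (chromosome 6, 13835074 to 13839848, mm10), an orphan receptor of the brain, gave 53, 38.9, 52.5 and 63.9 scaled FPKM in S40A, against 84.4, 78.6, 25.7 and 37 in WT. Both S40A libraries were below both WT libraries in the earlier set and above both in the later set. The set difference was 1.72 (SE 0.31, limma unadjusted p = 0.00135, adjusted p = 0.282). The S40A libraries stayed in a narrower range than the WT libraries, which were high in the earlier set and low in the later set.

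Sik1 encodes a salt-inducible kinase that phosphorylates CRTC coactivators of CREB and is itself a known CREB target. Its levels were 81.2, 49, 58.7 and 111 scaled FPKM in S40A, against 158, 24.8 and 70 in WT replicates 2 to 4, with WT replicate 1 between replicates 2 and 4. Within a pair, S40A was lower in the earlier and higher in the later set, yet in the later set S40A replicate 3 (58.7) lay below WT replicate 4 (70). The set difference was 2.12 (SE 0.76, limma unadjusted p = 0.0312, adjusted p = 0.38). Also among these 10 were the postsynaptic scaffold gene Homer1, Fam107b, Gltscr2, the cyclin-dependent kinase inhibitor gene Cdkn1b, the Sin3 histone deacetylase complex gene Sap30, and the nuclear IκB-like gene Nfkbid. Their set differences ran from 1.40 for Sap30 to 2.24 for Fam107b. Of the 10 genes, 9 had an unadjusted limma p under 0.05 for the set difference (11.6% over all genes), a property close to the ranking itself.

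The reverse pattern, higher in S40A in the earlier set and lower in the later set, was led by genes known from astrocytes. Aldoc (chromosome 11, 78324198 to 78326760, mm10), the aldolase of astrocytes, stood at 10.7, 22.9, 3.69 and 5.47 scaled FPKM in S40A, against 5.55, 4.87, 7.4 and 15.7 in WT. The S40A libraries lay above WT in the earlier set and below WT in the later set, without overlap in either. The set difference was -2.54 (SE 0.62, limma unadjusted p = 0.00595, adjusted p = 0.298). Gfap, the intermediate filament of astrocytes, had 9.1, 24.4, 1.15 and 2.37 in S40A and 4.36, 10.8, 1.95 and 13.3 in WT. Here S40A replicate 1 lay below WT replicate 2 and S40A replicate 4 above WT replicate 3, so that the sign rests on the pairing by number. Apoe, the lipid carrier of glia, was also among the 10, as were the matrix proteoglycan gene Bcan, Mfge8 and the metallothionein gene Mt3. Cpne6, Zfp952 and Pfkp were others of the 10. Zfp952, a zinc-finger gene, had the smallest p-value of the 10, with 9.42, 10.6, 6.36 and 7.58 scaled FPKM in S40A and 6.41, 6.41, 9.6 and 10.5 in WT. In Zfp952 the S40A and WT libraries did not overlap in either set, and the set difference was -1.04 (SE 0.16, limma unadjusted p = 0.000637, adjusted p = 0.257).

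**Figure D3:**
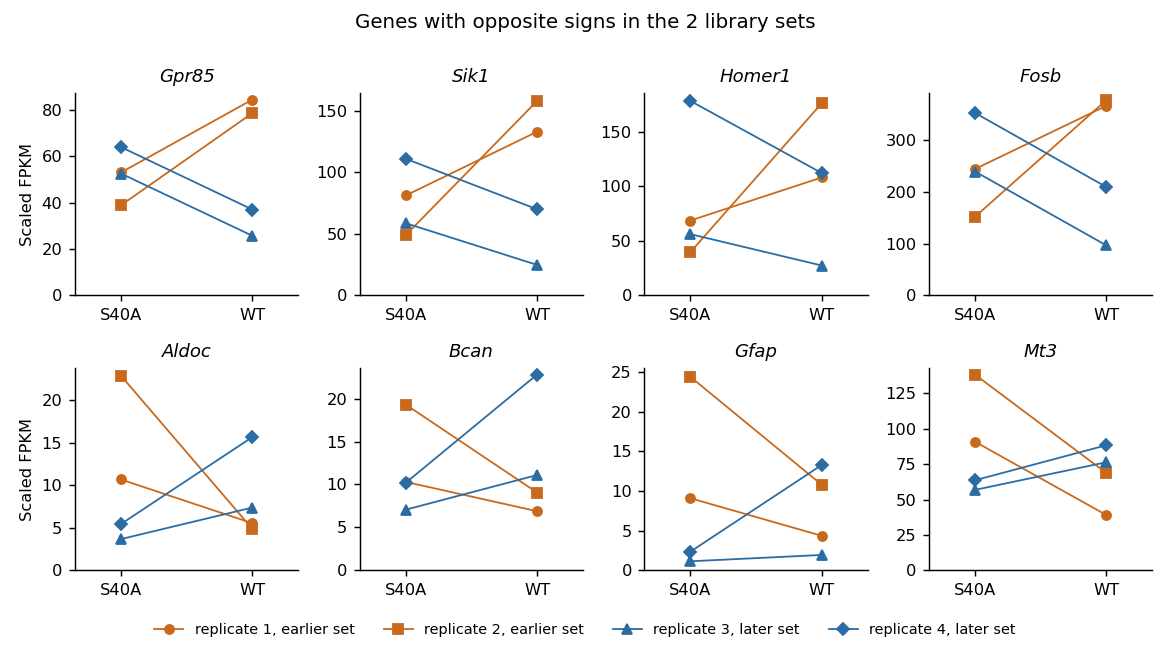
Scaled FPKM of 8 genes with opposite signs in the 2 library sets, drawn as S40A (left) and WT (right) joined by replicate number, orange for the earlier and blue for the later set. For Gpr85, Sik1, Homer1 and Fosb the orange lines slope up to WT and the blue lines down, and for Aldoc, Bcan, Gfap and Mt3 the reverse.

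Promoters were searched for the cyclic AMP response element that CREB binds, in windows of 250 bases before to 50 bases after each annotated start from RefSeq (GRCm38.p6), with 8858 genes tested having a window. The full element TGACGTCA reads the same on both strands and contains both shorter forms, TGACG and its reverse complement CGTCA. It was present in 343 of these genes (3.87%), against 2.03% of the 27025 genes of the whole table. It occurred in 85 of 1224 genes lower in the earlier and higher in the later set (6.94%) and in 24 of 1171 with the reverse pattern (2.05%). Among genes with 1 direction, it occurred in 51 of 992 that were higher in S40A (5.14%) and in 16 of 725 that were lower (2.21%), and among mixed genes in 3.52%. A shorter form, TGACG or CGTCA, was found in 37.1% of tested genes, in 44.4% and 33.4% of the genes with opposite signs in the same order, and in 41.7% and 34.5% of those higher and lower in all pairs. A match is a string of letters and no evidence of binding, and these shares carry no test.

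Of the 51 genes among those named above or in the list of immediate early factors that had a window, 4 held the full element. Their 250 bases before the start are given 5′ to 3′ on the gene's strand, with the element in capitals. They are shown because Cartpt heads the genes higher in S40A in all pairs, while the other 3 had opposite signs in the 2 sets; Btg2 and Maff are shown for their element and were chosen after their values were seen.
Cartpt (chr13:99900684-99900933, minus strand): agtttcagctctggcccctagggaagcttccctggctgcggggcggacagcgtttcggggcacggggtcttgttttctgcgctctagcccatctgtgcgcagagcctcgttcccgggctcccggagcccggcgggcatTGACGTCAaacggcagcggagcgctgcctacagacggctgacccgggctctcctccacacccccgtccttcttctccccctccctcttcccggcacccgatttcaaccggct
Nfkbid (chr7:30422156-30422405, plus strand): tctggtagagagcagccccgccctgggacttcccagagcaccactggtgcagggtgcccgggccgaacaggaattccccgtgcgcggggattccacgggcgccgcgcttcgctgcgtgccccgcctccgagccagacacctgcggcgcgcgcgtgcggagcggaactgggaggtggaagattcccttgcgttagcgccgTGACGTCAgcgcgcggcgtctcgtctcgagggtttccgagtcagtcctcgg
Btg2 (chr1:134079156-134079405, minus strand): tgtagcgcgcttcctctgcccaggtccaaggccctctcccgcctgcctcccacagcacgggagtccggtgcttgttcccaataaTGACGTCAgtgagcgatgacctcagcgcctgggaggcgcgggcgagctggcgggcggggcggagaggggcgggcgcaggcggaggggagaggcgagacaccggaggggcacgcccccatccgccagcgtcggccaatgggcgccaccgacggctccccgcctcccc
Maff (chr15:79347270-79347519, plus strand): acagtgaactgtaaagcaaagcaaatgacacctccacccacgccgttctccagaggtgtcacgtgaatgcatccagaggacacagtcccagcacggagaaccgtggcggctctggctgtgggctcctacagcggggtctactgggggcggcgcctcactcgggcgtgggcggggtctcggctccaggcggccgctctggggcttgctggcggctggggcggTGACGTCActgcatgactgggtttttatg
The first base of the element lay 112 bases before the annotated start of the window shown in Cartpt, 51 in Nfkbid, 166 in Btg2 and 29 in Maff. Nfkbid and Maff have other annotated starts with no full element in the 250 bases before them. For Nfkbid these include the start nearest the deposited gene position. Nfkbid stood at 5.45, 3.34, 5.57 and 6.68 scaled FPKM in S40A, against 8.9, 7.75, 2.2 and 4.1 in WT. Btg2, an antiproliferative gene induced by activity, stood at 11.3, 6.09, 4.65 and 7.69 in S40A, against 14, 21.3, 1.4 and 4.55 in WT. Maff, a small Maf transcription factor gene, stood at 21.7, 13.5, 16.2 and 35.8 in S40A, against 27, 34.5, 5.48 and 25 in WT. In all 3 genes S40A was lower in pairs 1 and 2 and higher in pairs 3 and 4, and WT replicate 3 had the lowest value of the 8 libraries.

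Immediate early transcription factors, the fast nuclear response to depolarization, had opposite signs in the 2 sets for most members. This list and those below were written with earlier results of these data known, so their counts are a description only. Of 26 tested members, 19 were lower in S40A in pairs 1 and 2 and higher in pairs 3 and 4, and 0 had the reverse pattern, where all genes gave 13.5% and 12.6%. Their median difference was -0.223, -0.794, 0.938 and 0.571 in pairs 1 to 4, against medians of -0.003 to 0.026 over all genes tested. The set difference had a median of 1.31, and 13 members had an unadjusted limma p under 0.05, all upward (5.67% over all genes), with none called after adjustment. Over both sets together the median was 0.09, with 0 members under an unadjusted p of 0.05. It was -0.221 without WT replicate 3 and -0.142 without S40A replicate 4.

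Fos, the AP-1 subunit that is the textbook activity marker, had 597, 395, 527 and 697 scaled FPKM in S40A, against 675, 728, 267 and 461 in WT. Egr1, a zinc-finger factor induced alongside it, had 322, 240, 353 and 476 in S40A and 377, 366, 210 and 258 in WT. Fosb had 244, 152, 239 and 352 in S40A and 366, 377, 96.5 and 209 in WT. All 3 genes were lower in both S40A libraries than in both WT libraries of the earlier set and higher in the later set. Their set differences were 1.31 (SE 0.45) for Fos, 1.23 (SE 0.30) for Egr1 and 1.96 (SE 0.58) for Fosb, with limma adjusted p-values of 0.365, 0.298 and 0.319. Jun, Jund and Ier2 were arranged in the same way, with set differences of 0.96, 0.53 and 1.33 and limma adjusted p-values of 0.298. Nr4a1, an orphan nuclear receptor and standard CREB target added after its values were seen, stood at 316, 187, 247 and 398 in S40A and 467, 466, 88.7 and 231 in WT.

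The levels behind these differences varied within the groups. The mean log2 level of the 26 factors was 5.85, 5.40, 5.55 and 6.20 in S40A replicates 1 to 4, against 6.09, 6.22, 4.67 and 5.65 in WT replicates 1 to 4. GFP libraries stood at 6.11, 5.81, 4.59 and 6.17, so GFP replicate 3 was as low as WT replicate 3. S133A, which lacks the phosphorylation site, stood at 5.12 and 6.06, and S40A-S133A, which lacks both sites, at 5.00 and 6.02. In the later set the library with the lower number of each group was the lower of its pair in all 5 virus groups, and S40A replicate 3 was the highest of these 5 libraries. In the earlier set, WT replicates 1 and 2 and GFP replicate 1 lay above 6, and S40A replicate 2 was lowest. The part that the order of the libraries has in the differences was not tested.

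**Figure D4:**
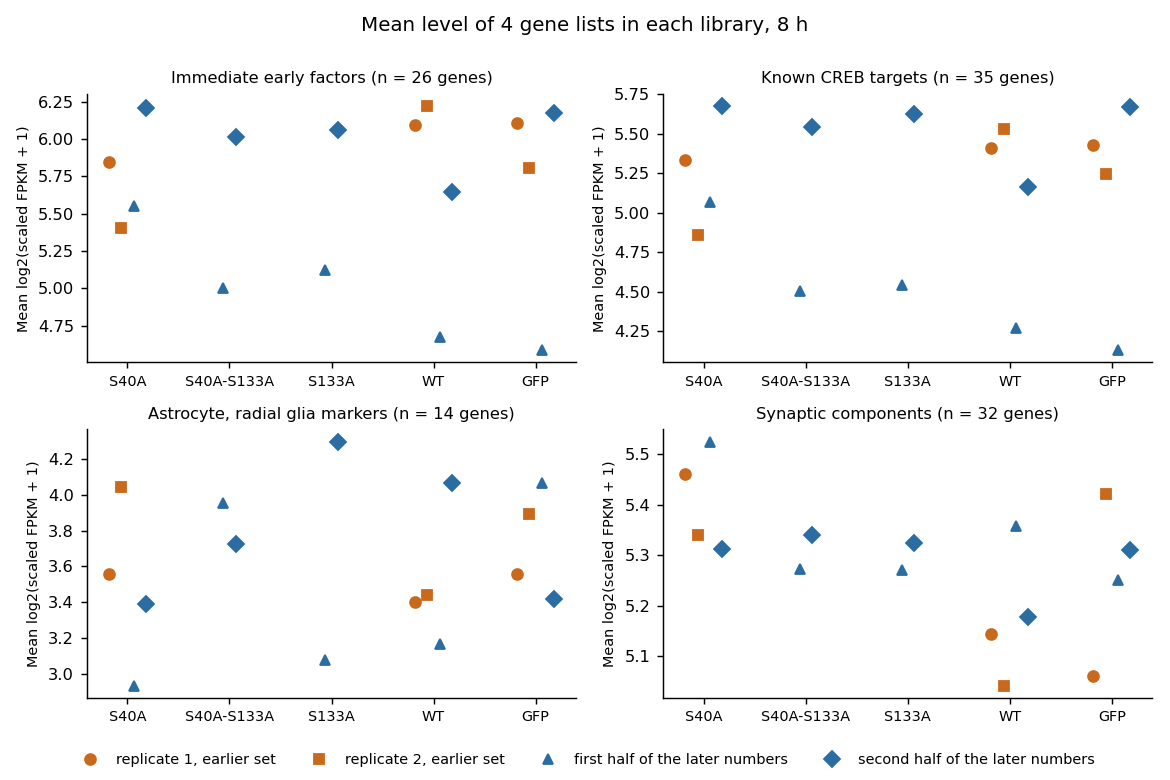
Mean log2(scaled FPKM + 1) over the tested members of 4 gene lists in each 8 h library, by virus; orange marks the earlier set and blue the later set, with triangles for the lower and diamonds for the higher library numbers of the later set. For immediate early factors the triangles are low in each virus group, lowest in GFP (4.59) and WT (4.67) and highest in S40A (5.55).

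Known CREB targets followed the same order in 20 of 35 tested members. These were lower in pairs 1 and 2 and higher in pairs 3 and 4 (13.5% over all genes), 0 showed the reverse (12.6%), and pair medians were -0.135, -0.609, 0.83 and 0.616. The set difference had a median of 1.18, with 15 members under an unadjusted p of 0.05, all upward (5.67% over all genes). The list shares members with the immediate early factors. Bdnf, the neurotrophin gene added after its values were seen, had 13.7, 5.04, 16.9 and 27.3 scaled FPKM in S40A and 13.2, 10.3, 2.87 and 13.1 in WT. Crem, which encodes the related cyclic AMP responsive modulator, had 45.4, 29, 46 and 52.8 in S40A and 49.9, 60.6, 19 and 37.7 in WT. In Crem the S40A libraries were below WT in the earlier set and above WT in the later set, while Bdnf overlapped in the earlier set. The median over both sets was 0.113, or -0.187 without WT replicate 3 and -0.086 without S40A replicate 4.

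Activity-regulated effectors and feedback inhibitors held the order in part. It was present in 14 of 33 effectors and 13 of 25 inhibitors (13.5% over all genes). The reverse was present in 3 effectors and 2 inhibitors, no larger a share than over all genes (12.6%). Among effectors, the synaptotagmin gene Syt4 had 155, 91.5, 198 and 201 scaled FPKM in S40A and 198, 172, 112 and 131 in WT, with no overlap in either set. Rgs4, a regulator of G protein signalling, had 29.4, 18.3, 23.5 and 28.5 in S40A and 25.8, 27.1, 10.5 and 14.2 in WT. The secretory granule genes differed among themselves. Vgf followed the order, with a set difference of 1.37 (SE 0.43, limma adjusted p = 0.337), and Scg2 had a set difference of 1.43 (SE 0.47, limma adjusted p = 0.353) but mixed signs. Chga was instead higher in S40A in every pair, with 67.1, 60.8, 63.3 and 68 scaled FPKM in S40A and 51, 48.4, 61.4 and 57.2 in WT.

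**Figure D5:**
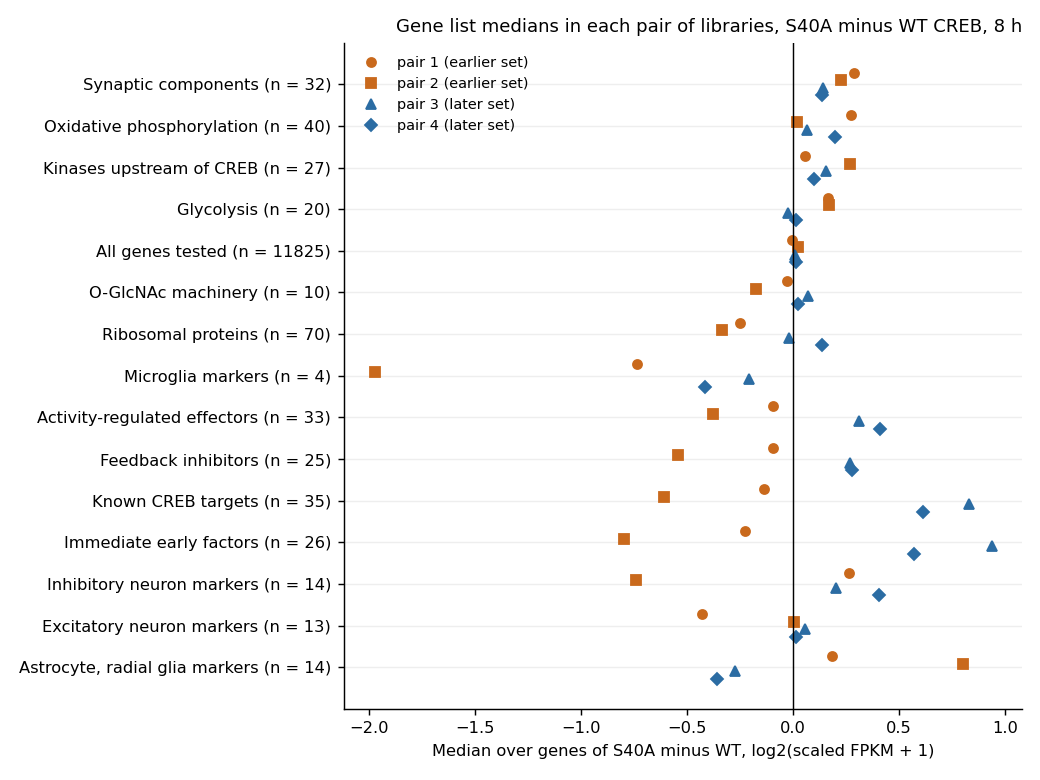
Median S40A minus WT difference (log2(scaled FPKM + 1)) of each gene list in pairs 1 to 4, with all genes tested in the middle; orange points are pairs of the earlier set and blue points of the later set. Synaptic and oxidative phosphorylation lists lie right of 0 in all pairs, and known CREB targets and immediate early factors have orange points left and blue points right of 0.

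Synaptic components, a list also written with earlier results known, were mostly higher in S40A. Of 32 tested genes, 31 were higher in S40A on average, against 6308 of 11825 over all genes. In all 4 pairs, 20 were higher and 0 lower, where 11.1% and 7.76% of all genes were. Pair medians were 0.289, 0.227, 0.144 and 0.138, and 12 members had an unadjusted limma p under 0.05 (3.5% over all genes, upward), with none called after adjustment. Shank3, a postsynaptic scaffold protein, stood at 29.1, 25.9, 26.1 and 27.1 scaled FPKM in S40A, against 24, 20.8, 21.6 and 24.4 in WT. No S40A library of Shank3 lay below a WT library, and the difference was 0.24 (SE 0.08, limma unadjusted p = 0.0158, adjusted p = 0.888). Grin1, the obligatory NMDA receptor subunit, had 49.1, 44.6, 60.3 and 45.6 in S40A and 35.1, 33.2, 49.7 and 40.4 in WT. Syp, Syt1 and Vamp2, proteins of the synaptic vesicle, differed by 0.34 (SE 0.12), 0.44 (SE 0.16) and 0.26 (SE 0.10) and were higher in every pair.

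Nuclear-encoded oxidative phosphorylation genes, which build the mitochondrial respiratory chain, were higher in S40A by small amounts. All 40 tested members had a difference above 0, against 6308 of 11825 over all genes, with a median of 0.14. Of the 40, 9 had an unadjusted limma p under 0.05 (3.5% over all genes, upward) and 20 were higher in all 4 pairs (11.1%). In 17 of them the libraries did not overlap in either set (3.08% over all genes). Pair medians were 0.277, 0.018, 0.067 and 0.199, so pair 2 was near 0. Without scaling, the medians of the synaptic and oxidative phosphorylation lists stayed above 0. Ndufs8, a subunit of complex I, had 49.5, 46.4, 51.6 and 48.8 scaled FPKM in S40A, against 38.8, 38.3, 43.6 and 40.2 in WT. Every S40A library was above every WT library, by 0.28 (SE 0.06, limma unadjusted p = 0.00202, adjusted p = 0.888). The complex I genes Ndufa1 and Ndufa4 and the complex III gene Uqcrc1 had no overlap either, with differences of 0.31, 0.25 and 0.24. The highest members, the ATP synthase gene Atp5b and the cytochrome oxidase gene Cox6a1, differed by 0.10 and 0.09 with overlapping groups.

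Glycolysis genes were less even. Of 20 tested, 13 were higher in S40A, against 6308 of 11825 over all genes, 3 of them under an unadjusted p of 0.05 (3.5% over all genes), and pair medians were 0.167, 0.17, -0.02 and 0.015. Aldoa, the aldolase of muscle and neurons, had 267, 248, 244 and 250 scaled FPKM in S40A and 176, 192, 227 and 219 in WT, with no overlap. Tpi1, triosephosphate isomerase, was higher in each pair by 0.29 on average (SE 0.09), and Eno2, the neuronal enolase, had 64.1, 63.8, 56.7 and 53.7 in S40A against 34.3, 39.5, 63.9 and 52.7 in WT. For Eno2 only the earlier set separated the groups, and the set difference was -0.85 (SE 0.17, limma unadjusted p = 0.00233, adjusted p = 0.298).

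Kinases and calcium sensors upstream of CREB leaned the same way as the synaptic genes. Of 27 tested, 23 were higher in S40A, against 6308 of 11825 over all genes. An unadjusted p under 0.05 was reached by 6 of them (3.5% over all genes), and the median was 0.087, against 0.011 over all genes. The protein kinase A catalytic gene Prkacb stood at 148, 128, 109 and 93.7 scaled FPKM in S40A, against 89.6, 85, 91.2 and 77 in WT. The groups did not overlap, and the difference was 0.46 (SE 0.12, limma unadjusted p = 0.00473, adjusted p = 0.888). The calmodulin gene Calm3 differed by 0.22 (SE 0.10) and the protein kinase A regulatory subunit gene Prkar1b by 0.29 (SE 0.10), both in all pairs, whereas Calm2 differed by 0.02 (SE 0.10). Camk2a, a CaMKII subunit of excitatory neurons, was separated in the earlier set, at 46.1 and 50.7 in S40A against 19.7 and 14.2 in WT. In the later set its values overlapped, at 51.2 and 34.3 in S40A against 42.8 and 37.8 in WT.

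CREB family members and coactivators did not share a direction. Of 15 tested, 7 were higher and 8 lower in S40A, and 0 had an unadjusted p under 0.05. Atf4 had 314, 256, 245 and 348 scaled FPKM in S40A and 373, 381, 196 and 251 in WT, and the coactivator gene Ep300 had 12.1, 11.6, 13.5 and 13 in S40A and 13.8, 15.5, 12.8 and 11.9 in WT. Both were lower in pairs 1 and 2 and higher in pairs 3 and 4. Creb3l1, an endoplasmic reticulum-bound relative, was higher in all S40A libraries than in any WT library, at 2.66 to 3.91 against 1.54 to 2.63, with a difference of 0.36 (SE 0.16, limma unadjusted p = 0.0531, adjusted p = 0.888).

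Genes that make, add and remove O-GlcNAc differed little. Of 10 tested, 2 were higher and 8 lower in S40A, and 0 had an unadjusted p under 0.05. Ogt, the transferase, stood at 30.7, 28.5, 36.4 and 32.9 scaled FPKM in S40A, against 35.8, 41.1, 32.3 and 31.6 in WT. S40A was lower in the earlier set and higher in the later set without overlap, with a set difference of 0.47 (SE 0.14, limma unadjusted p = 0.0163, adjusted p = 0.33). Mgea5, the enzyme that removes the sugar, had 61.6, 62.5, 72.2 and 73 in S40A and 65.1, 62.8, 72.9 and 77 in WT, a difference of -0.04 (SE 0.05). Among the genes of sugar-nucleotide supply and salvage, Uap1, Uap1l1 and Amdhd2 differed by 0.13 (SE 0.10), -0.03 (SE 0.14) and -0.18 (SE 0.11).

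Ribosomal protein genes were lower in S40A in the earlier set. Of 70 tested, 58 were lower on average, against 5517 of 11825 over all genes, and 3 had an unadjusted p under 0.05 (1.51% over all genes, downward), with pair medians of -0.249, -0.332, -0.016 and 0.136. The overall median was -0.104, or -0.043 without WT replicate 2. In 23 of them the sign was negative in pairs 1 and 2 and positive in pairs 3 and 4 (13.5% over all genes), and in 0 the reverse (12.6%). Rps26 showed it without overlap in either set, at 225, 218, 260 and 285 scaled FPKM in S40A against 294, 314, 235 and 226 in WT. Rpl38 was lower in all pairs, at 41.5, 17, 15.6 and 19.7 in S40A against 58.5, 49.6, 30.7 and 30.6 in WT, although GFP replicate 2 stood at 552, far outside both.

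Genes of endoplasmic reticulum and integrated stress did not share a direction. Of 22 tested, 2 were higher and 1 lower at an unadjusted p under 0.05, where 3.5% and 1.51% of all genes were. Counts this small are not read as a result about the list. Values of the members with the smallest p-values are given as a description. Sdf2l1, a chaperone cofactor of the endoplasmic reticulum, was low in all libraries, at 2, 2.14, 2.75 and 2.13 scaled FPKM in S40A against 3.68, 3.55, 3.34 and 3.32 in WT, with no overlap. Asns, asparagine synthetase, was higher in each pair, at 85.3, 74.8, 86.9 and 112 in S40A against 56.3, 49.9, 78.5 and 88.5 in WT. Chac1, another gene induced by amino acid stress, differed by 0.43 (SE 0.17) with overlapping groups. Casp9, of the 16 apoptosis and p53 genes tested, was higher in the earlier and lower in the later set, with a set difference of -0.53 (SE 0.16, limma adjusted p = 0.327).

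Markers of cell types moved with several of these differences. Astrocyte and radial glia markers had pair medians of 0.184, 0.801, -0.272 and -0.359, the reverse of the immediate early factors, and 7 of 14 tested were higher in S40A in pairs 1 and 2 and lower in pairs 3 and 4 (12.6% over all genes). Their overall median of -0.102 was 0.175 without WT replicate 4 and 0.114 without S40A replicate 3. The mean log2 level of these markers was 3.56, 4.04, 2.93 and 3.39 in S40A, against 3.40, 3.44, 3.17 and 4.07 in WT. S40A replicate 2 and WT replicate 4 were thus highest, and none of the 16 was listed at 0. Fabp7, a radial glia fatty acid binding protein, had 68.8, 118, 48 and 60.3 scaled FPKM in S40A and 57.9, 39.8, 79.3 and 118 in WT. Aldh1l1, an astrocyte marker, had 2.41, 4.92, 1.24 and 2.46 in S40A and 2.13, 1.78, 3.1 and 6.23 in WT. Their part in the differences of other genes was not tested.

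The 4 microglia markers tested were lower in S40A on average, and most of the list of 14 was low. Only these 4 reached the mean of 1 scaled FPKM over the 8 libraries. Tyrobp and C1qc did so only through their WT values, so their direction was partly set by that filter. The median and the p-value of Tyrobp below carry this limit. The sum over all 14 markers was 10.1 to 16.7 in S40A and 12.3 to 55.5 in WT, highest in WT replicate 2. Tyrobp, a microglial signalling adaptor, had 0.299, 1.08, 0.0863 and 0.354 in S40A, against 3.11, 12.3, 0.556 and 1.93 in WT. It was lower in S40A in each pair, by 1.49 on average (SE 0.47, limma unadjusted p = 0.0145, adjusted p = 0.888). The lysosomal marker gene Cd68 had no overlap, at 2.85 to 3.25 in S40A against 3.54 to 8.99 in WT, while C1qc overlapped. Cx3cr1 stayed at or under 0.0365 in S40A and 0.217 in WT, P2ry12 was listed at 0 in 4 of the 8 libraries, and Tmem119 stayed at or under 0.178 in S40A and 0.166 in WT. The median over the 4 tested markers was -0.828. Without WT replicate 2 it was -0.368, but C1qc then fell under the mean of 1 scaled FPKM and was left out. These medians thus differ in members as well as in libraries.

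Neuron markers had no shared direction over the pairs. Inhibitory markers had pair medians of 0.267, -0.741, 0.202 and 0.409, with WT replicate 2 at the highest sum (886). Slc32a1, the vesicular GABA transporter, had 86.6, 67.2, 52.9 and 64.7 in S40A and 39, 82.1, 45.9 and 39.9 in WT. Sst, the somatostatin gene and a CREB target, had 159, 123, 146 and 197 in S40A and 179, 143, 85.1 and 109 in WT. Excitatory markers had pair medians of -0.426, 0.004, 0.058 and 0.016, with WT replicate 2 at the lowest sum (424). Bcl11b and Neurod6, factors of cortical projection neurons, were both lower in pairs 1 and 2 and higher in pairs 3 and 4, with set differences of 0.92 (SE 0.20) and 1.24 (SE 0.45) and limma adjusted p-values of 0.298 and 0.387. The vesicular glutamate transporter gene Slc17a7 and the calmodulin-binding gene Nrgn had the reverse pattern, with set differences of -1.48 (SE 0.55) and -0.97 (SE 0.53) and limma adjusted p-values of 0.39 and 0.525. Slc17a7 was added after its values were seen. Camk2a, described above, also had a lower later difference (-1.42, SE 0.32, limma adjusted p = 0.298). The young-neuron genes Dcx and Marcks instead had a higher later difference, by 0.80 (SE 0.28) and 0.37 (SE 0.13), with limma adjusted p-values of 0.374 and 0.372.

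In libraries outside this comparison, genes with 1 direction at 8 h had that direction at shares close to those of all genes. At 4 h, S40A was above WT in both available pairs for 22.4% of all genes. Among genes higher in all 4 pairs at 8 h, this held for 21.0%, while 32.4% were instead below WT in both. With unscaled FPKM the 21.0% became 32.7%, but the share also rose in genes lower in all 4 pairs, where it was larger. An unscaled share of all genes is not given here, so the 32.7% cannot be set against the 22.4%. S40A was below WT in both for 27.8% of all genes and for 28.4% of the genes lower in all 4 pairs at 8 h. When S40A-S133A was set against S133A at 8 h, 18.6% of all genes and 20.6% of those higher in all 4 pairs were above 0 in both pairs, and 20.7% and 17.0% of all and of lower genes were below 0. Cartpt differed by 0.050 and -0.534 at 4 h and by -0.180 and 0.247 between S40A-S133A and S133A, and Kcnh1 by -0.396 and -0.315 and by -0.169 and 0.099. Of the 10 named genes higher in all 4 pairs, 0 were above 0 in both pairs of either comparison, and 6 were below 0 in both pairs at 4 h. Medians of the synaptic list were -0.104 and 0.013 at 4 h, and 0.008 and 0.017 for S40A-S133A against S133A. Those of the oxidative phosphorylation list were -0.028 and 0.025 at 4 h, and -0.069 and 0.076 for S40A-S133A against S133A. These values carry no test, since each comparison holds 2 libraries per group.

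At 4 h the genes with opposite signs at 8 h leaned toward the signs of the earlier set at 8 h, without a test. Genes lower in pairs 1 and 2 were below 0 in both 4 h pairs in 36.0% of cases, against 27.8% of all genes, and those higher in pairs 1 and 2 were above 0 in both in 27.9%, against 22.4%. Of the 10 named genes of each pattern, 7 were below 0 in both 4 h pairs and 0 above for the lower ones, and 7 were above and 1 below for the higher ones. The medians of the immediate early factors were -0.687 and -0.116 at 4 h. They were -0.143 and -0.054 for S40A-S133A against S133A. Aldoc differed by 0.497 and 0.628 at 4 h, with 56.9 and 10 scaled FPKM in S40A and 40 and 6.14 in WT, but by 1.99 and -0.952 between S40A-S133A and S133A at 8 h.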

How the data were processed

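RNA of 22 libraries was measured by sequencing, and 8 are compared here. For each library the authors deposited FPKM values of 24490 gene entries, relative to transcript length and library size. Tools named in the submitters' processing notes are CASAVA 1.7, Bowtie 0.12.2 and Cufflinks (version not stated); builds mm8 and mm10 are named without a role, and the deposited positions fall on mm10. Strand handling and the sharing of reads between copies are not given in the sources used here, so overlapping genes cannot be told apart.

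Deposited FPKM were divided by median-of-ratios factors over the 8 libraries, and log2 was taken after adding 1 FPKM as pseudocount. The 11 entries with a failed estimate were removed, and the 11825 genes whose mean reached 1 FPKM were tested with limma 3.58.1 in R 4.3.3 (two-sided, trend, library set as covariate, 5 residual degrees of freedom, Benjamini-Hochberg over all genes). The difference between sets left 4. Both were tested on simulated data first. Figures used matplotlib 3.10.9 and tables pandas 2.3.3 with numpy 2.4.6 in Python 3.11.15.

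Groups and replicate numbers came from the labels. Members and gene lists were chosen with earlier results of these data known. Named genes were Creb1; the 10 genes per sign pattern with the largest weakest pair, given an assigned name and a mean of at least 5 FPKM; the 4 genes of smallest p; and, from each list, up to 4 members of smallest p and up to 2 of highest mean. Nr4a1, Bdnf, Btg2, Maff, Rpl34, Slc17a7 and 3 microglia markers were added after their values were seen; 4 genes that the rule names are not reported here. Alternatives were other pseudocounts and filters, no scaling, a replicate block, all 16 libraries at 8 h and leaving out each library.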

Additional observations from a re-analysis of the deposited data

Results flagged for a closer look

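Among the genes named above, the 4 libraries of a group were searched for a value far from the others by Dixon's ratio at its 95% critical value, and 11 of 208 groups (5.29%) passed; chance passes about 1 in 20. In S40A replicate 4, Syp stood at 227 scaled FPKM, below the others, and C1qc at 0.423, above them. Timm10b at 13.0 in S40A replicate 3 and Rpl38 at 41.5 in S40A replicate 1 were above the other S40A libraries. WT replicate 2 gave 4 of the 11 values: Creb3l1 at 1.54 and Slc1a2 at 4.47 were low, and Slc32a1 at 82.1 and C1qc at 6.23 were high. Mfge8 at 14.5 and Pfkp at 93.6 in WT replicate 4 were above the other WT libraries. Rpl34 at 7.08 in WT replicate 3 was below the other WT libraries.

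The difference of the S40A effect between library sets passed an adjusted limma p of 0.05 for 8 entries. On the log2 scale it was 7.34 for Mir377, 8.17 for Mir7673 and 4.78 for Snord67, and -8.79 for Mir6972, -6.57 for Mir7013, -9.40 for Mir7650 and -8.73 for Scarna2. Each of these 7 was listed at 0 in 6 of 8 libraries. BC029722 (chromosome 2, 155817732 to 155819203) gave -4.24 and was listed at 0 in 2 libraries.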

How the results depend on the processing

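No gene was called between S40A and WT by limma under any setting that kept the 8 libraries, with 593 genes at an unadjusted p under 0.05 in the fit reported. Leaving out 1 library gave 0 to 3 calls, all but Ppap2a microRNA or snoRNA entries, and 179 to 1137 at the unadjusted p. For the difference between sets, with 8 calls, all 16 libraries gave 1 call and 677 at the unadjusted p, and leaving out 1 library gave 20 to 31 and 643 to 1562. Replicate numbers were also used as a block, although same-numbered libraries deviated together only in the later set (correlations of -0.086, -0.035, 0.499 and 0.429); the block gave 0 calls between S40A and WT and 2361 set differences at the unadjusted p. Counted without overlap within sets, an alternative chosen after seeing the data, the sign patterns held 364, 254, 576 and 586 genes. Unscaled FPKM gave 927 genes lower then higher and 2334 higher then lower, and put the synaptic median between sets at -0.182. It put the share above 0 in both 4 h pairs at 32.7% for genes higher in all 4 pairs at 8 h. The share also rose without scaling in genes lower in all 4 pairs. A minimum mean of 5 FPKM gave 922 higher then lower. Pairs crossed in the earlier set, also added later, gave 1286, 921, 1612 and 1539 genes, of which 1036, 726, 1354 and 1281 were the same.

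Without 1 library, list medians of S40A minus WT ranged over -0.221 to 0.33 for immediate early factors, -0.187 to 0.342 for CREB targets, 0.047 to 0.156 for kinases, 0.113 to 0.172 for oxidative phosphorylation, 0.178 to 0.249 for synaptic components, -0.295 to 0.175 for astrocyte markers, -1.041 to -0.368 for microglia markers and -0.192 to -0.043 for ribosomal proteins. The set differences of these lists, in this order, ranged over 0.901 to 1.794, 0.786 to 1.515, -0.2 to 0.04, -0.067 to 0.049, -0.194 to -0.026, -0.95 to -0.64, 0.189 to 1.578 and 0.186 to 0.461. The filter on the mean was applied anew without each library, so list members could change, as C1qc did without WT replicate 2. Named genes were mostly chosen by their signs, p-values or levels in these same libraries, and none of those counted here was called. An unchanged sign and call was therefore largely set by that choice. Of 1608 values of named genes under the alternatives, 1604 had the same sign and call. The other 4 were Creb1, whose difference near 0 ranged over -0.378 to 0.422, above 0 without S40A replicates 1 and 3 (0.058 and 0.422) or WT replicates 2 and 4 (0.135 and 0.312). The cause was not tested in any of these. With FPKM alone, depth sets no interval, and low genes such as microglia markers are limited most.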
